A study of Mus musculus with 12 samples.

Results

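The comparison set mouse embryonic stem cells of 1 Set knockdown line, KD1, against cells of a scrambled control line after both had been differentiated with retinoic acid. Its arrays were chosen by their labels, 2 for RA KD1 and 2 for RA Scrambled, 4 of the 12 arrays of the series. It ran across all 19938 genes that the platform annotation names by a single symbol, 1 probe set per gene. RA KD1 and RA Scrambled cells were R1 embryonic stem cells, an established mouse line, exposed for 4 days to retinoic acid at 1 µM, in 10% serum and without leukemia inhibitory factor. ESC KD1 and ESC Scrambled, 2 arrays each, were the same lines kept as stem cells in 15% serum with 1000 U/ml of that factor. They served to ask whether a difference was already there before differentiation. RA KD2, a second knockdown line, entered with its replicate 1 alone, because its replicate 2 resembled the stem cell arrays. The protocols call the knockdown and control cells clones, so each line differs from the others in its clonal history as well as in Set, and the knockdown and the clone cannot be told apart. The labels do not say how the knockdown was made.

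SET is a histone chaperone of the nucleosome assembly protein family, known also as an inhibitor of protein phosphatase PP2A and as a subunit of a complex that masks histone tails from acetyltransferases. Retinoic acid binds nuclear receptors that sit on DNA next to their target genes, among them Hox genes and the enzymes that degrade retinoic acid itself, and it drives stem cells out of self-renewal. One fate open to embryonic cells is the extraembryonic endoderm. Its visceral form takes up and transports nutrients, its parietal form secretes a thick basement membrane, and both are set up by GATA, SOX and FOX transcription factors.

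All values are log2 expression values of a 1-colour Affymetrix gene array after robust multi-array averaging, so that a difference of 1 is a 2-fold change. The median of all values was 7.22, and values well under it lie near the floor of the array. The 2 RA KD1 arrays correlated at 0.996 over all probe sets and the 2 RA Scrambled arrays at 0.995, whereas an RA KD1 array correlated with an RA Scrambled array at 0.985 to 0.989. A gene was called where limma's adjusted p was below 0.05. In these bulk samples, fewer cells of a type and less RNA per cell cannot be told apart.

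Set itself was lower in RA KD1 cells. Both bright probe sets also match BC085271, so they report the 2 loci together. Probe set 10470893 read 11.28 and 11.16 in RA KD1 and 12.27 and 12.29 in RA Scrambled. The RA KD1 signal was 48.1% of RA Scrambled (log2 difference -1.06, SE 0.09, adjusted p = 0.000247). Probe set 10587486 read 11.21 and 11.17 in RA KD1 and 12.09 and 12.19 in RA Scrambled, a log2 difference of -0.95 (SE 0.10, adjusted p = 0.000611). The RA KD1 arrays lay below the RA Scrambled arrays on both. In stem cells limma also called both lower in ESC KD1 than in ESC Scrambled. The log2 differences there were -0.78 (adjusted p = 0.00513) and -0.75 (adjusted p = 0.00793). How far the difference changed from stem cells to retinoic acid was called for neither (-0.28 and -0.20). The 2 dim probe sets that match Set alone read between 6.04 and 6.72 in RA KD1 and between 5.83 and 6.68 in RA Scrambled, and neither was called (log2 differences 0.10 and 0.24).

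Across the 19938 genes, 1075 were higher in RA KD1 (5.39%) and 1333 were lower (6.69%), 2408 in either direction (12.1%). Of these, 324 were higher by at least 2-fold (1.63%) and 308 lower by at least 2-fold (1.54%). At an unadjusted p below 0.05 by limma, 4801 of the 19938 genes passed in either direction. The arrays of the 2 groups did not overlap for 11292 genes (56.6%), so non-overlap alone is common here. The number of calls rested on each of the 4 arrays. When RA KD1 replicate 1 was left out, 508 genes were higher and 636 lower, and when RA KD1 replicate 2 was left out, 421 were higher and 305 lower. Leaving out RA Scrambled replicate 1 gave 586 higher and 596 lower, and leaving out RA Scrambled replicate 2 gave 636 higher and 737 lower. With arrays centred on their medians the calls split into 1430 higher and 958 lower, so the balance between directions depends on the scaling. Fitting all 12 arrays, the displaced KD2 arrays among them, left 315 higher and 148 lower calls. The plot of difference by level shows that the strongest rises reached further from 0 than all but a few of the falls.

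**Figure D1:**
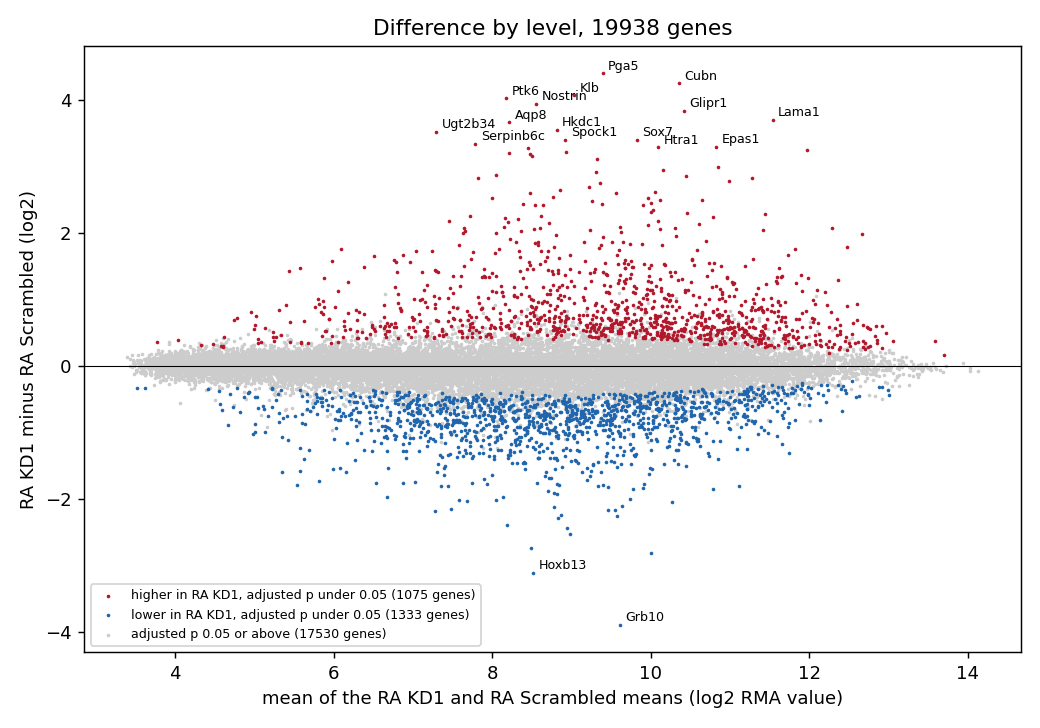
Each point is 1 of 19938 genes; the horizontal axis is the mean of the RA KD1 and RA Scrambled means (log2 RMA value), the vertical axis RA KD1 minus RA Scrambled (log2). Red and blue mark the 1075 genes called higher and the 1333 called lower. Pga5 at 4.40 and Grb10 at -3.88 are the extremes among the labelled genes.

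The strongest rise among the genes named was that of Pga5, a gene of the pepsinogen family of secreted proteases. Pga5 read 11.56 and 11.63 in RA KD1 and 6.87 and 7.51 in RA Scrambled, a log2 difference of 4.40 (SE 0.35, adjusted p = 0.000102). Cubn, which encodes cubilin, an endocytic receptor of the visceral endoderm and kidney, read 12.43 and 12.53 in RA KD1 and 8.15 and 8.30 in RA Scrambled, 19.11-fold higher (log2 4.26, SE 0.13). In RA Scrambled cells Pga5 lay around the array's median and Cubn above it. In RA KD1 cells both genes lay far above it. Klb, the co-receptor of endocrine fibroblast growth factors, read 11.10 and 11.05 in RA KD1 and 6.99 and 7.02 in RA Scrambled (log2 4.07, SE 0.12). Ptk6, a cytoplasmic tyrosine kinase of epithelia, read 10.09 and 10.29 in RA KD1 and 6.20 and 6.13 in RA Scrambled (log2 4.03, SE 0.12). Both were below the median of all values in the RA Scrambled arrays.

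The remaining 11 of the 15 largest rises lay between 3.30 and 3.94. They comprised Nostrin, a regulator of endothelial nitric oxide synthase trafficking (3.94), Glipr1 (3.84), Lama1 (3.71), the water channel Aqp8 (3.67), the hexokinase-domain gene Hkdc1 (3.56), the glucuronosyltransferase Ugt2b34 (3.53), Sox7 (3.41), the matrix proteoglycan Spock1 (3.40), the protease inhibitor Serpinb6c (3.34), the hypoxia-inducible factor subunit Epas1 (3.30) and the secreted protease Htra1 (3.30). All 15 stayed called without each array in turn. Cubn, Lama1, Sox7 and Htra1 were also called higher in ESC KD1 than in ESC Scrambled, by 1.02, 0.98, 1.13 and 1.14. The other 11 were not called there, with differences from -0.08 to 0.62.

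The strongest fall was that of Grb10, an imprinted gene whose adaptor protein dampens insulin and IGF receptor signalling. Grb10 read 7.78 and 7.56 in RA KD1 and 11.52 and 11.59 in RA Scrambled, 14.8-fold lower (log2 difference -3.88, SE 0.16, adjusted p = 2.75e-06). Hoxb13, the most posterior gene of its cluster, read 7.02 and 6.92 in RA KD1 and 10.29 and 9.86 in RA Scrambled (log2 -3.10, SE 0.16). Igfbp7, a secreted binding protein of the IGF family, read 8.97 and 8.24 in RA KD1 and 11.67 and 11.17 in RA Scrambled (log2 -2.81, SE 0.28). The RA KD1 arrays lay near the median of all values for the first pair and moderately above it for Igfbp7. The other 12 of the 15 largest falls lay between -2.74 and -2.11. They were the chemokine Cxcl15, the protease inhibitor Serpinb9e, the matrix protein Edil3, the protocadherins Pcdh7 and Pcdh18, the transcription factors Tbx18 and Etv1, the connexin Gjb2, the hormone somatostatin (Sst), Tmem255a, the pericyte-associated regulator Rgs5 and the guidance cue Slit2. Each of the 15 stayed called without each array in turn. Of the 15, Grb10 alone was called in stem cells, where ESC KD1 lay 1.73 log2 units below ESC Scrambled (difference -1.73, adjusted p = 0.0019).

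Transcription factors and signals of the extraembryonic endoderm were raised in RA KD1. Of 19 measured members, 12 were called higher (63.2%) and 2 lower (10.5%), with a median difference of 1.87 beside -0.01 for all genes. Sox7, a factor of the primitive and parietal endoderm, read 11.47 and 11.59 in RA KD1 and 8.03 and 8.21 in RA Scrambled, 10.6-fold higher (log2 3.41, SE 0.15, adjusted p = 3.78e-06). Gata4, which with Gata6 establishes the primitive endoderm, read 12.34 and 12.35 in RA KD1 and 9.33 and 9.37 in RA Scrambled, 7.99-fold higher (log2 3.0, SE 0.14). Sox17, a partner factor needed for endoderm, read 9.57 and 9.65 in RA KD1 and 7.03 and 7.31 in RA Scrambled (log2 2.44, SE 0.14). The groups were separated widely on all 3 genes, and the replicates lay close together.

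Pdgfra, the growth factor receptor used to mark primitive endoderm, read 11.81 and 11.94 in RA KD1 and 8.86 and 9.17 in RA Scrambled (log2 2.86, SE 0.22). Foxq1 was higher by 2.96, the ligand gene Bmp2 by 2.49, the transcriptional coactivator Cited1 by 2.09 and the hedgehog ligand Ihh, which visceral endoderm secretes, by 1.98. Of the members outside the 8 largest, named after their values were seen, Hnf4a was higher by 1.91, Foxa2 by 1.87, Tcf7l2 by 0.99 and Gata6 by 0.59. Gata6 thus moved far less than Gata4 on this array. The 2 members that went the other way, also named after their values were seen, were Gata5 (-1.40) and Foxa1 (-1.20), both endoderm factors. The count called higher was 10 to 12 without each of the 4 RA arrays and 6 in the fit of all 12 arrays.

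Genes of the parietal endoderm and its basement membrane were raised as well. Of 30 measured members, 20 were called higher by limma (66.7%) and 0 lower, with a median difference of 1.29. At an unadjusted p below 0.05, 22 were higher and 1 lower. Lama1, the laminin alpha chain of early basement membranes, read 13.34 and 13.44 in RA KD1 and 9.58 and 9.79 in RA Scrambled, 13.1-fold higher (log2 3.71, SE 0.11, adjusted p = 6.93e-07). Col4a1, a type IV collagen chain, read 11.94 and 11.87 in RA KD1 and 9.85 and 9.47 in RA Scrambled (log2 2.25, SE 0.15). Chains of both networks of the membrane, laminin and type IV collagen, thus stood higher in RA KD1. The laminin chain gene Lamc1, named with the genes of chromosome 1 below, was higher by 1.99.

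Srgn, which encodes the secretory granule proteoglycan serglycin, read 13.59 and 13.60 in RA KD1 and 9.79 and 10.90 in RA Scrambled (log2 3.25, SE 0.37). Its RA Scrambled arrays differed by more than a log2 unit, far more than its RA KD1 arrays did. Fst, the activin antagonist follistatin, read 12.70 and 12.69 in RA KD1 and 9.86 and 9.85 in RA Scrambled (log2 2.83, SE 0.15). Thbd, thrombomodulin, a surface protein of parietal endoderm, was higher by 2.54, the parathyroid hormone receptor Pth1r by 2.51 and the collagen prolyl hydroxylase P4ha2 by 2.50. General cytoskeletal markers of the same list, named after their values were seen, did not pass the test, with -0.16 for Vim and 0.09 for Krt8. The count called higher was 15 to 18 without each of the 4 RA arrays and 7 in the fit of all 12 arrays.

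Visceral endoderm genes differed among themselves. Of 27 measured members, 12 were called higher (44.4%) and 1 lower (3.70%), with a median difference of 0.15. Beside Cubn, the endocytic receptor Lrp2 (megalin), which works together with cubilin, read 11.01 and 11.05 in RA KD1 and 9.12 and 8.70 in RA Scrambled (log2 2.12, SE 0.23). Nostrin read 10.52 and 10.53 in RA KD1 and 6.22 and 6.95 in RA Scrambled, 15.4-fold higher (log2 3.94, SE 0.20). Habp2, a secreted serine protease, read 10.03 and 10.11 in RA KD1 and 6.71 and 7.04 in RA Scrambled (log2 3.20, SE 0.15). On these uptake and secretion genes both RA KD1 arrays lay above both RA Scrambled arrays. The lysosomal protease Ctsc was higher by 2.10, the zinc transporter Slc39a8 by 1.58 and Mttp, which loads lipid onto lipoproteins, by 1.43. Afp and Apoa1, serum protein genes named after their values were seen, did not pass the test. Afp read 6.27 and 6.34 in RA KD1 and 6.33 and 7.05 in RA Scrambled, and Apoa1 read 7.44 and 7.38 in RA KD1 and 7.17 and 7.35 in RA Scrambled. The 1 member called lower was Trf, transferrin (-0.74), likewise named after its value was seen. The count called higher was 10 to 13 without each of the 4 RA arrays and 10 in the fit of all 12 arrays.

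**Figure D2:**
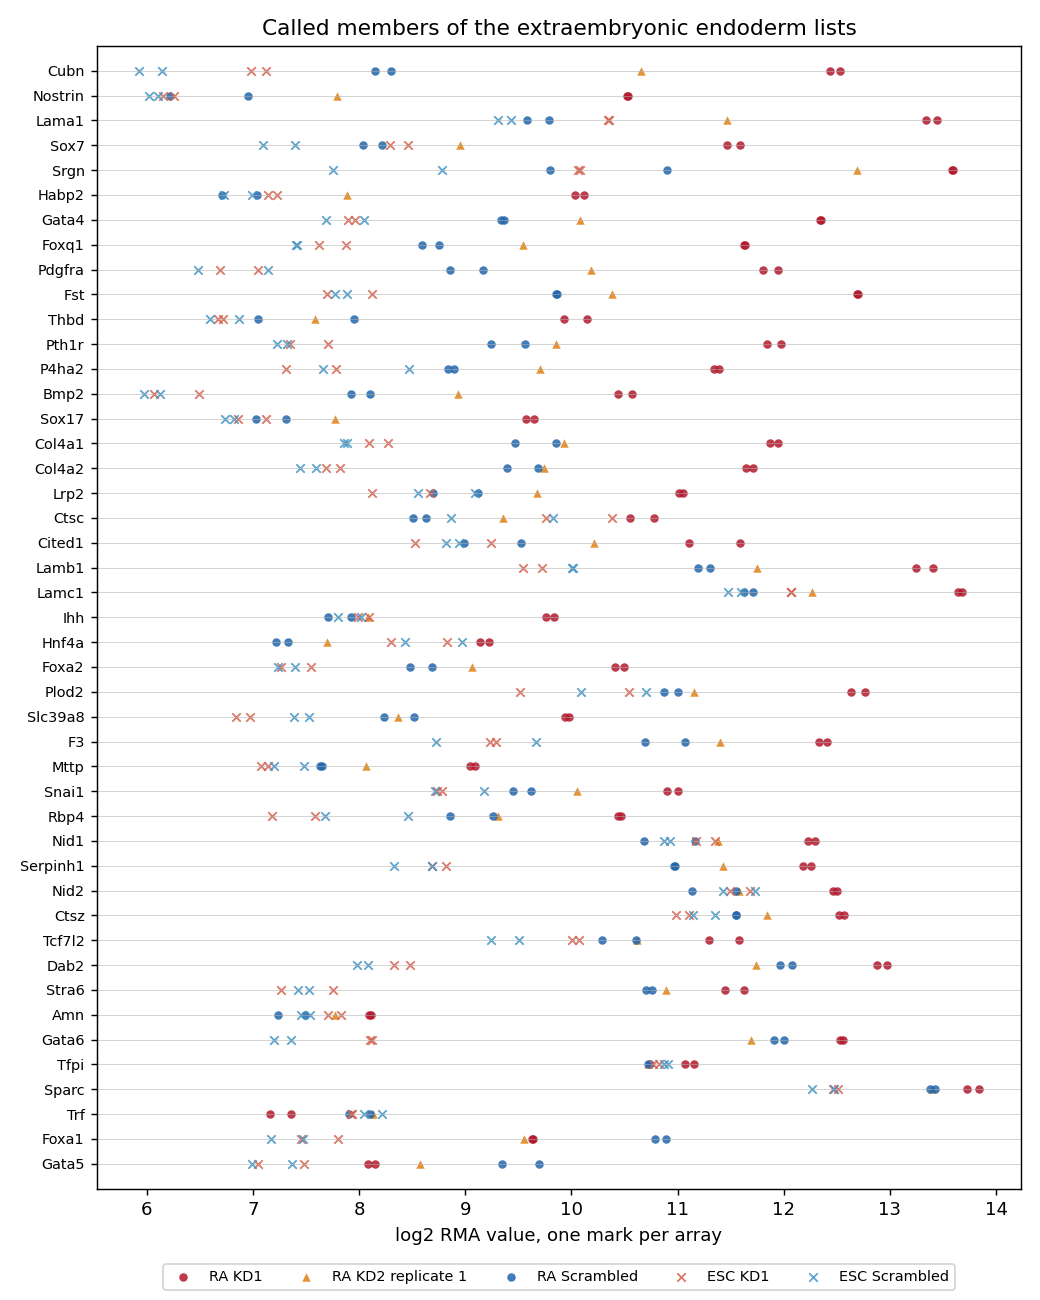
Each row is a called member of the 3 extraembryonic endoderm lists and each mark the log2 RMA value of 1 array, with circles for RA KD1 and RA Scrambled, a triangle for RA KD2 replicate 1 and crosses for the stem cell arrays. For Cubn the RA KD1 circles sit at 12.43 and 12.53, the triangle at 10.66 and the RA Scrambled circles at 8.15 and 8.30. The rows run from the largest rise at the top to Gata5 at the bottom.

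The bases in front of these genes were read from the RefSeq table of promoters (assembly GRCm38.p6). They were searched on either strand for AGATAA, the core that GATA factors bind, over the 250 bases before the start. The motif has no overlap with the others searched here. Of the 42 members of the 3 lists called higher, 30 had a promoter in the table and 7 of these held the motif (23.3%). It was held by 2 of 25 members that were not called (8%) and by 11.4% of all 27025 genes with a promoter. A gene counted as a holder where the bases before any of its starts matched, so genes with more starts had more chances. The holders were Hnf4a, Foxa2, Slc39a8, Ctsz, Tcf7l2, Stra6 and Tfpi, each with 1 match, and named for holding it. No test was made of these shares. The promoters of Cubn and Nostrin, the members with the largest rise that are in the table, hold no match. They are printed with those of Hnf4a and Foxa2, the holders with the largest rise, 5′ to 3′ on the gene's strand and with the match in capitals. Cubn and Nostrin have 1 start each in the table, Hnf4a 2 and Foxa2 3. For Hnf4a and Foxa2 the start printed was picked because it holds the match.
Cubn, chr2:13491877-13492126, - strand: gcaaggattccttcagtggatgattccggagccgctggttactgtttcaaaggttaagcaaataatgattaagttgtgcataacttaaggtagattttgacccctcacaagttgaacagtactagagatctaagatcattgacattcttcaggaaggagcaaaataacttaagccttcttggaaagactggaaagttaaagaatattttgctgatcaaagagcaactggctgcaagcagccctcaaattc
Nostrin, chr2:69135550-69135799, + strand: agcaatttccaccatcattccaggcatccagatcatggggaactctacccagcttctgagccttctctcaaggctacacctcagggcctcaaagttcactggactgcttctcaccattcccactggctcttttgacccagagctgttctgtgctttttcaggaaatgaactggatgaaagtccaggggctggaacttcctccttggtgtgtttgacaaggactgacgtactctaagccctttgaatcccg
Hnf4a, chr2:163506607-163506856, + strand: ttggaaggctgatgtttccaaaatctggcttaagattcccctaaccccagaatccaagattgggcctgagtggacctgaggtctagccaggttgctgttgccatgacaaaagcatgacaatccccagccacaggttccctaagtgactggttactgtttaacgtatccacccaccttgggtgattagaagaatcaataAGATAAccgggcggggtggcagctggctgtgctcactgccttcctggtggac
Foxa2, chr2:148045465-148045714, - strand: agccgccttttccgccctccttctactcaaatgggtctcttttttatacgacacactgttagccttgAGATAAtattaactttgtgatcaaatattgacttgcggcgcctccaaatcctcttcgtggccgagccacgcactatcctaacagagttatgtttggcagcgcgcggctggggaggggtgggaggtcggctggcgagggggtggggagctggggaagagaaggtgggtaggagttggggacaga

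Hnf4a, whose protein drives visceral endoderm and liver genes, read 9.14 and 9.23 in RA KD1 and 7.21 and 7.33 in RA Scrambled (log2 1.91, SE 0.21). Foxa2, a pioneer factor of endoderm, read 10.49 and 10.41 in RA KD1 and 8.47 and 8.68 in RA Scrambled (log2 1.87, SE 0.15).

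Hox genes, which pattern the body axis and respond to retinoic acid in the order of their clusters, moved one way. Of 37 measured members, limma called 21 lower in RA KD1 (56.8%) and 0 higher, with a median difference of -0.63. At an unadjusted p below 0.05 the counts were 26 lower and 0 higher. Hoxb13 stood apart at -3.10, as described above. Hoxb9 read 9.04 and 8.93 in RA KD1 and 10.61 and 10.02 in RA Scrambled (log2 -1.33, SE 0.20, adjusted p = 0.00281). Hoxd8 read 6.93 and 6.61 in RA KD1 and 8.31 and 7.89 in RA Scrambled (log2 -1.33, SE 0.18). Hoxd4 read 6.37 and 6.37 in RA KD1 and 7.66 and 7.39 in RA Scrambled (log2 -1.15, SE 0.13). For these the RA KD1 arrays lay below both RA Scrambled arrays, and those of the HoxD genes were under the median of all values.

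Hoxd1, the most anterior gene of its cluster, was lower by 1.08 on the log2 scale (-1.08), Hoxc8 by 0.96 (-0.96), Hoxb5 by 0.94 (-0.94) and Hoxb2 by 0.93 (-0.93). The lower calls included members of all 4 clusters and of both anterior and posterior paralogue groups. Without RA KD1 replicate 1 the Hox genes called lower numbered 12, without RA KD1 replicate 2 they numbered 7, and without RA Scrambled replicates 1 and 2 in turn they numbered 13 and 16. They numbered 4 in the fit of all 12 arrays. Hoxb13, Hoxb9, Hoxd8, Hoxd4 and Hoxd1 stayed called without each array in turn, while Hoxc8, Hoxb5 and Hoxb2 were not called without RA KD1 replicate 2, and Hoxb5 and Hoxb2 each also lost the call without 1 RA Scrambled array.

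**Figure D3:**
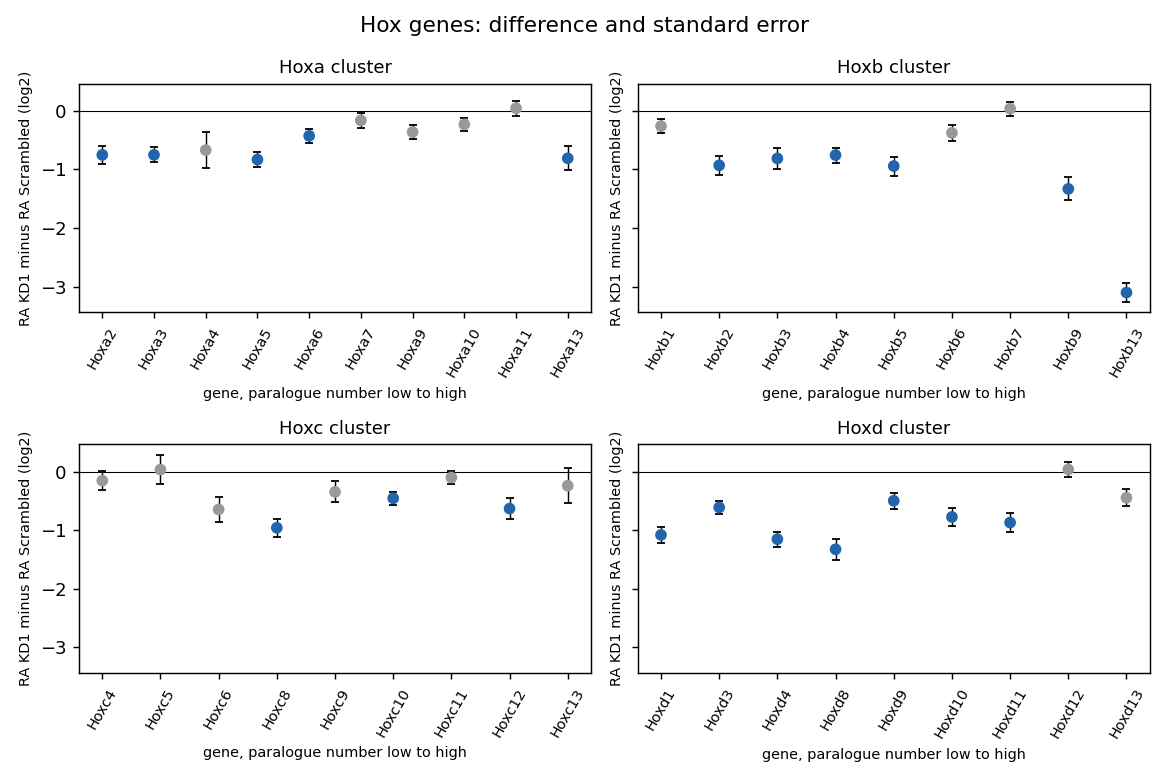
Points are RA KD1 minus RA Scrambled (log2) for the 37 measured Hox genes by cluster, from low to high paralogue number, with bars of 1 standard error; blue marks genes called lower and grey those not called. Hoxb13 lies at -3.10 and no gene was called higher.

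The promoters of the Hox and retinoid genes were searched for AGGTCA, the half-site that retinoic acid receptors bind, on either strand over the same 250 bases. Of members with a promoter in the table, 6 of 20 called lower (30%), 7 of 23 not called (30.4%) and 0 of 3 called higher held it. Over all genes with a promoter the share was 15.8%. The share was thus alike in members called lower and not called. The promoters of Hoxd8 and Hoxd4, the Hox genes with the largest fall that are in the table, each hold 1 match, printed in capitals 5′ to 3′ on the gene's strand. Hoxb13 and Hoxb9 are named only.
Hoxd8, chr2:74704365-74704614, + strand: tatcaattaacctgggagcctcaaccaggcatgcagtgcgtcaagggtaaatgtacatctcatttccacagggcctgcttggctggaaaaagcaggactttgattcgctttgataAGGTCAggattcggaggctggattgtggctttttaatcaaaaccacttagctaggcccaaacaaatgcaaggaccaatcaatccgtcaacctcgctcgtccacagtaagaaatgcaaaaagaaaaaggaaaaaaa
Hoxd4, chr2:74721728-74721977, + strand: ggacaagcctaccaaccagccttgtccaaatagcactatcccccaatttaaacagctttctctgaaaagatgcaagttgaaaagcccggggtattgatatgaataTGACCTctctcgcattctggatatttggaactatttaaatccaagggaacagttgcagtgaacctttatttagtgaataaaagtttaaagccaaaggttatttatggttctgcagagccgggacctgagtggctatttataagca

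Retinoid genes were divided. Of 32 measured members, 3 were called higher (9.38%) and 7 lower (21.9%). Cyp26a1, the main enzyme that degrades retinoic acid and a direct target of its receptors, read 12.43 and 12.49 in RA KD1 and 11.51 and 10.89 in RA Scrambled (log2 1.26, SE 0.18, adjusted p = 0.00271). Its paralogue Cyp26b1 went the other way, with 9.43 and 9.55 in RA KD1 and 10.52 and 10.46 in RA Scrambled (log2 -1.0, SE 0.15). Lrat, which esterifies retinol for storage, read 6.06 and 6.42 in RA KD1 and 7.75 and 7.27 in RA Scrambled (log2 -1.27, SE 0.17). These 3 stayed called without each array in turn. The retinol carrier Rbp4 (1.39) and the retinol uptake receptor Stra6 (0.80) were also higher. The receptor gene Rara (-0.60), the reductase gene Dhrs3 (-0.81) and the orphan receptor gene Nr2f2 (-0.66) were lower. Those 5 calls were lost without RA KD1 replicate 2, and the count called lower was 2 to 4 without each of the 4 RA arrays. Marker genes of retinoic acid treated cells were present in both groups: Rarb read 11.11 and 11.17 in RA KD1 and 11.52 and 11.59 in RA Scrambled, and was not called (log2 -0.42).

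Limma called 13 of 37 measured genes of fibroblast matrix and collagen lower in RA KD1 (35.1%) and 0 higher, while 24 were not called. The median difference was -0.38, and at an unadjusted p below 0.05 the counts were 18 lower and 0 higher. Edil3, an integrin-binding matrix protein, read 7.93 and 7.52 in RA KD1 and 10.18 and 10.13 in RA Scrambled (log2 -2.43, SE 0.15). Matn2, a filament-forming matrix protein, read 7.15 and 6.93 in RA KD1 and 9.02 and 9.09 in RA Scrambled (log2 -2.01, SE 0.16). Postn, periostin, read 6.32 and 5.99 in RA KD1 and 7.76 and 8.02 in RA Scrambled (log2 -1.73, SE 0.13). All 3 genes had RA KD1 arrays more than a log2 unit below the RA Scrambled arrays. Mamdc2 was lower at -1.33, the fibril-associated collagen Col14a1 at -1.14 and the fibrillar collagen Col3a1 at -0.95, the last not called without RA KD1 replicate 2. The list's lower calls numbered 6 without RA KD1 replicate 2, 7 without RA Scrambled replicate 1, and 3 in the fit of all 12 arrays.

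Among regulators of mesenchymal transition and cadherins, 11 of 29 were lower (37.9%) and 5 higher (17.2%). Cdh11, a cadherin of mesenchyme, read 9.67 and 8.83 in RA KD1 and 11.26 and 11.32 in RA Scrambled (log2 -2.04, SE 0.27). Foxc2, a mesodermal forkhead factor, read 9.11 and 8.38 in RA KD1 and 10.83 and 10.65 in RA Scrambled (log2 -1.99, SE 0.22). Both RA KD1 replicates were below RA Scrambled, replicate 2 more so. Snai1, a repressor of epithelial genes that parietal endoderm also expresses, was higher instead (1.41), as was the coreceptor gene Tgfbr3 (1.84). The lower calls numbered 4 without RA KD1 replicate 2, 7 without either RA Scrambled array and 1 in the fit of all 12 arrays, where 1 was higher.

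Mesoderm transcription factors gave 12 of 38 lower (31.6%) and 3 higher (7.89%), Gata4 being the largest of the higher ones. Tbx18, a factor of epicardium and somites, read 7.84 and 7.53 in RA KD1 and 9.75 and 10.18 in RA Scrambled (log2 -2.28, SE 0.19). Isl1, a factor of the second heart field and of motor neurons, read 7.62 and 7.75 in RA KD1 and 9.37 and 9.51 in RA Scrambled (log2 -1.75, SE 0.17). Tbx2 was lower at -1.44, Tcf21 at -1.11, Tbx4 at -1.16 and Twist1 at -1.14, the last 2 not called without RA KD1 replicate 2. The lower calls numbered 11 without RA KD1 replicate 1, 6 without RA KD1 replicate 2 and 8 without either RA Scrambled array. They numbered 1 in the fit of all 12 arrays.

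Marker lists of other cell types moved in part with these groups. Their shares are read beside the 5.39% of all genes called higher and the 6.69% called lower. Of 10 fibroblast markers, 4 were lower (40%) and 0 higher. The 4 were Col3a1, Twist2, Prrx1 and Dcn, from -0.95 to -0.52. Their number was 0 without RA KD1 replicate 2 and 1 without either RA Scrambled array. Of 11 markers of blood cells and macrophages, 4 were higher (36.4%), namely Laptm5 (2.70), Fcer1g (1.74), Csf1r (0.60) and Cd68 (0.57). The other 7 were not called. Among them Ptprc, Itgam and Adgre1, named after their values were seen, lay near the floor in both groups. They read between 4.80 and 6.20 in RA KD1 and between 4.82 and 6.19 in RA Scrambled. The blood marker calls numbered 2 to 4 without each of the 4 RA arrays. Of 8 endothelial markers, Cdh5 and Tek were higher (25%) and Emcn and Pecam1 lower (25%). Without either RA KD1 array at most 1 call stayed in each direction. Of 8 stem cell markers, Klf4, Fbxo15 and Tcl1 were higher (37.5%) and Nanog lower (12.5%). Klf4 alone of these stayed called without each array in turn. The calls of Fbxo15 and Tcl1 were lost without either RA KD1 array, and that of Tcl1 also without RA Scrambled replicate 1. Of 7 markers of retinoic acid treated cells, Cyp26a1 and Stra6 were higher (28.6%) and 0 lower. The call of Stra6 was lost without each of the 4 RA arrays in turn. None of 10 markers of heart and skeletal muscle was called by limma, or passed at an unadjusted p below 0.05. The part of other cell types in the gene groups described here was not tested.

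Among imprinted genes and the IGF pathway, limma called 13 of 43 measured members lower (30.2%) and 0 higher. At an unadjusted p below 0.05 the counts were 19 lower and 1 higher. After Grb10 and Igfbp7 came Nap1l5, an imprinted nucleosome assembly protein gene, which read 6.52 and 6.63 in RA KD1 and 8.44 and 7.66 in RA Scrambled (log2 -1.47, SE 0.22). Plagl1, an imprinted zinc finger gene, read 11.30 and 10.84 in RA KD1 and 12.22 and 12.26 in RA Scrambled (log2 -1.17, SE 0.15). The growth factor gene Igf1 read 8.15 and 7.83 in RA KD1 and 8.89 and 9.37 in RA Scrambled (log2 -1.14, SE 0.17). These stayed called without each array in turn, and the 2 groups did not overlap on any of them. The list's lower calls numbered 5 without RA KD1 replicate 2, 6 without RA KD1 replicate 1 or RA Scrambled replicate 2, 8 without RA Scrambled replicate 1 and 3 in the fit of all 12 arrays.

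Signalling genes changed in both directions. In BMP and TGF-beta signalling, 12 of 40 measured members were lower (30%) and 4 higher (10%). Beside Fst and Bmp2, the BMP antagonist gene Nog read 8.80 and 8.56 in RA KD1 and 7.59 and 7.53 in RA Scrambled (log2 1.12, SE 0.12). The pseudoreceptor gene Bambi read 9.79 and 9.75 in RA KD1 and 10.93 and 10.95 in RA Scrambled (log2 -1.17, SE 0.10). The ligand gene Tgfb3 (-1.46) and the signal transducer gene Smad9 (-1.21) were also lower. Fst and Nog, the secreted antagonists named in this paragraph, were among the 4 higher genes. Lefty1, an antagonist of Nodal named below, was lower. Lower calls in this pathway numbered 4 without RA KD1 replicate 2, 6 without RA Scrambled replicate 1 and 0 in the fit of all 12 arrays.

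In Wnt signalling, 8 of 36 were lower (22.2%) and 3 higher (8.33%), the 3 being secreted antagonists. Frzb read 9.71 and 9.84 in RA KD1 and 7.10 and 7.24 in RA Scrambled (log2 2.61, SE 0.13), Sfrp5 was higher by 1.67 and Dkk1 by 1.11. Other antagonists of the same families fell, Dkk2 with 7.98 and 7.90 in RA KD1 and 9.82 and 9.59 in RA Scrambled (log2 -1.77, SE 0.12). The ligand gene Wnt5a was lower at -1.59 and the receptor gene Fzd1 at -1.23. Lower Wnt calls numbered 3 without RA KD1 replicate 2 and 1 in the fit of all 12 arrays, which called 0 higher.

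Among vascular and PDGF genes, 4 of 29 were higher (13.8%) and 8 lower (27.6%). Flt1, a receptor that binds VEGF, read 10.85 and 10.91 in RA KD1 and 7.84 and 7.69 in RA Scrambled, 8.64-fold higher (log2 3.11, SE 0.12, adjusted p = 2.57e-06). Angpt2, an antagonist of the angiopoietin receptor, read 7.76 and 7.62 in RA KD1 and 9.15 and 9.14 in RA Scrambled (log2 -1.45, SE 0.11). The ligand gene Pdgfd (-1.17) and the transcription factor gene Fli1 (-1.09) were lower too. The lower calls numbered 3 without RA KD1 replicate 2, 4 without RA Scrambled replicate 2, 5 without RA Scrambled replicate 1 and 0 in the fit of all 12 arrays.

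Of 37 measured genes of glycolysis and the hypoxia response, 12 were called higher (32.4%) and 1 lower (2.70%), while 24 were not called, with a median of 0.32. Epas1 read 12.49 and 12.45 in RA KD1 and 8.98 and 9.37 in RA Scrambled, 9.83-fold higher (log2 3.30, SE 0.24). P4ha1, a prolyl hydroxylase subunit for collagen, read 12.56 and 12.61 in RA KD1 and 10.29 and 10.29 in RA Scrambled (log2 2.30, SE 0.30). Pfkl, a phosphofructokinase of glycolysis, read 11.58 and 11.69 in RA KD1 and 9.70 and 9.82 in RA Scrambled (log2 1.88, SE 0.17). The 3 genes rose with no overlap between groups. P4ha1 and P4ha2 also serve the basement membrane collagens described above. Egln3, an oxygen-sensing hydroxylase gene, was higher by 2.15, the glucose transporter gene Slc2a3 by 1.12 and the enzyme gene Pgk1 by 0.71, while Adm, adrenomedullin, was lower (-0.97). The call of Egln3 was lost without each of the 4 RA arrays in turn, that of Slc2a3 without either RA KD1 array and that of Pgk1 without RA KD1 replicate 2. The higher calls numbered 6 without RA KD1 replicate 2 and 4 in the fit of all 12 arrays. The core of the hypoxia-response element, ACGTG, was searched on either strand in the 250 bases before the start. It was held by 8 of 10 members called higher (80%), 14 of 22 not called (63.6%) and 18.5% of all genes with a promoter.

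Limma called 9 of 26 genes of amino acid synthesis and the ATF4 response higher (34.6%) and 0 lower, and 10 higher and 1 lower passed at an unadjusted p below 0.05. Most of these shifts were small. Atf3 read 11.43 and 11.84 in RA KD1 and 10.32 and 9.94 in RA Scrambled (log2 1.51, SE 0.25; not called without RA KD1 replicate 2 or RA Scrambled replicate 2), and the amino acid transporter gene Slc7a5 read 11.96 and 11.86 in RA KD1 and 11.40 and 11.26 in RA Scrambled (log2 0.57, SE 0.08). The higher calls numbered 1 to 3 without each of the 4 RA arrays and 0 in the fit of all 12 arrays. Of 26 cholesterol and lipid synthesis genes, 3 were higher (11.5%) and 0 lower, with 3 higher and 4 lower at an unadjusted p below 0.05. Insig1, which restrains sterol synthesis, was the largest, with 12.43 and 12.45 in RA KD1 and 10.30 and 10.47 in RA Scrambled (log2 2.05, SE 0.15); it alone stayed called without each array in turn.

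**Figure D4:**
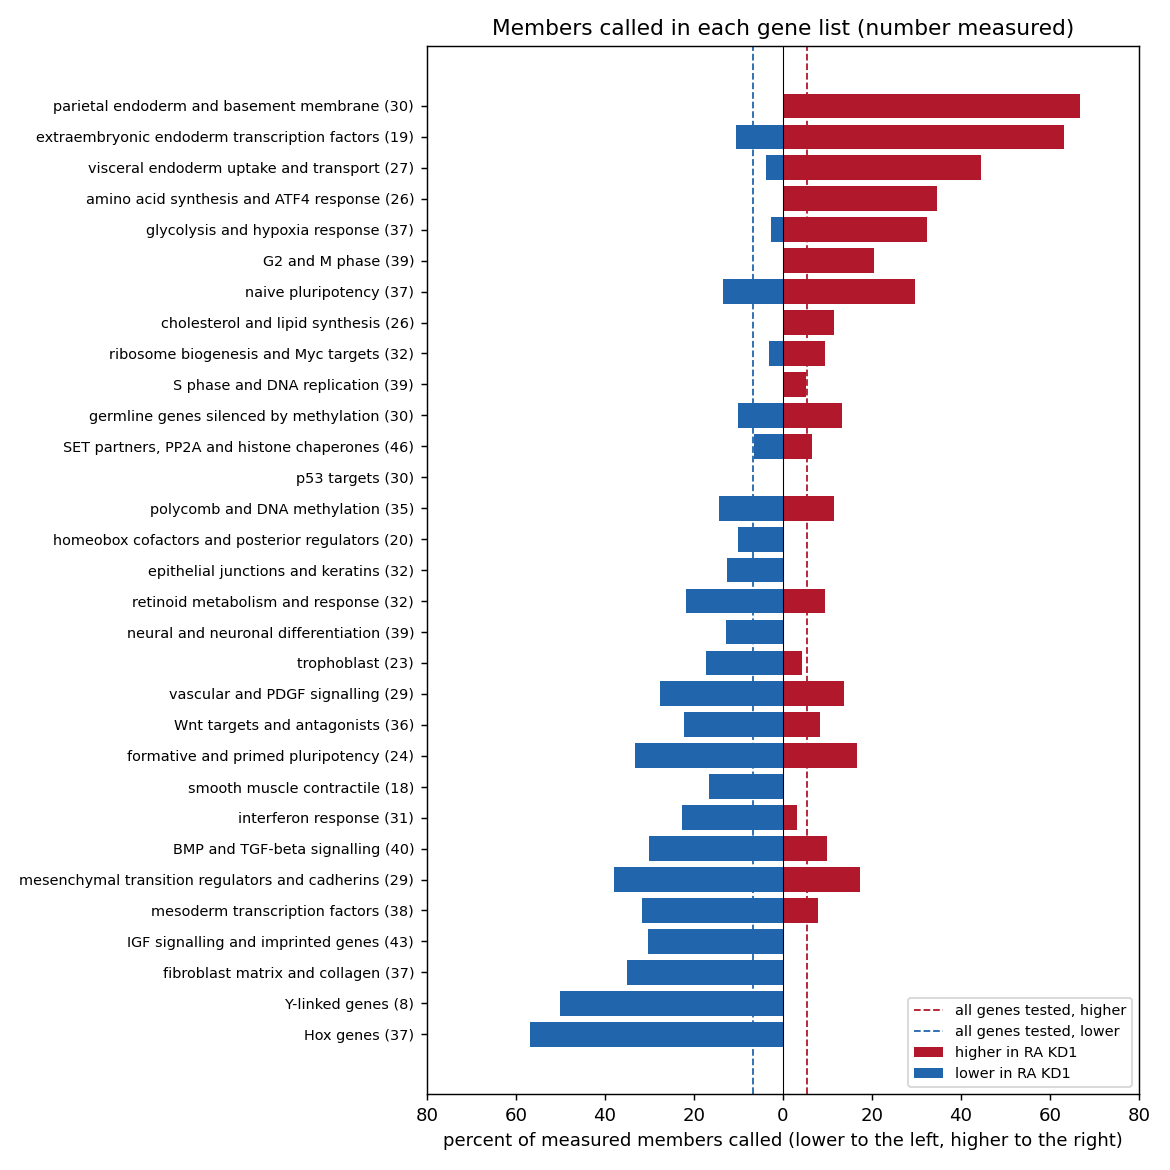
Bars give the percent of each list's measured members (number in brackets) called higher in RA KD1, to the right, or lower, to the left; dashed lines mark all genes tested at 5.39% higher and 6.69% lower. Lists of parietal endoderm (66.7% higher) and Hox genes (56.8% lower) mark the ends, and many genes belong to more than 1 list.

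Pluripotency genes did not move as a block. Of 37 measured naive genes, 11 were higher (29.7%) and 5 lower (13.5%), with a median of -0.09. Klf4 read 10.45 and 10.56 in RA KD1 and 8.87 and 9.15 in RA Scrambled (log2 1.5, SE 0.13). Klf5, a related factor, read 12.56 and 12.60 in RA KD1 and 11.08 and 11.33 in RA Scrambled (log2 1.38, SE 0.18). Nanog, a core factor of the naive state, read 9.56 and 8.69 in RA KD1 and 10.09 and 10.87 in RA Scrambled (log2 -1.35, SE 0.29, adjusted p = 0.0166). The replicates of Nanog differed by most of a log2 unit within each group, and its call was lost without RA KD1 replicate 2 or RA Scrambled replicate 2. Lin28a, an RNA-binding protein that blocks let-7 maturation, was higher by 1.13. Pou5f1 and Sox2, named after their values were seen, were not called (0.21 and -0.25). Both counts moved with the RA Scrambled arrays: 6 higher and 9 lower without replicate 1, and 13 higher and 2 lower without replicate 2. Without RA KD1 replicates 1 and 2 in turn 5 were higher, and the lower calls numbered 4 and 1. The fit of all 12 arrays gave 1 higher and 0 lower.

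Of 24 formative and primed genes, 8 were lower (33.3%) and 4 higher (16.7%). Nodal read 7.88 and 7.58 in RA KD1 and 8.89 and 8.80 in RA Scrambled (log2 -1.11, SE 0.16), and its antagonist gene Lefty1 was lower at -1.37, a call that was lost without RA KD1 replicate 2. The lower calls numbered 1 without that array, 4 without RA Scrambled replicate 2, 5 without RA KD1 replicate 1 and 0 in the fit of all 12 arrays. Of 35 polycomb and DNA methylation genes, 4 were higher (11.4%) and 5 lower (14.29%). Dnmt3l, the cofactor of new DNA methylation, read 10.19 and 10.31 in RA KD1 and 8.64 and 9.28 in RA Scrambled (log2 1.29, SE 0.18). The methyltransferase gene Dnmt3b was higher at 1.20 and Dnmt3a lower at -0.91, and neither stayed called without RA KD1 replicate 2. No member stayed lower without RA KD1 replicate 2 or without RA Scrambled replicate 2. Of 30 germline genes silenced by methylation, 4 were higher (13.3%) and 3 lower (10%), with a median of 0.01; Taf7l was higher by 1.36. The higher calls numbered 1 to 3 without each of the 4 RA arrays, and the lower ones 3 without RA Scrambled replicate 1 and 0 without each of the others.

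Cell cycle genes shifted little. Of 39 measured genes of G2 and M phase, 8 were called higher by limma (20.5%) and 0 lower, with a median of 0.19 and a largest difference of 0.65, for the kinase gene Nek2, not called without RA KD1 replicate 1. At an unadjusted p below 0.05 the counts were 19 higher and 2 lower. Kif23, a kinesin of cytokinesis, read 11.67 and 11.66 in RA KD1 and 11.14 and 11.12 in RA Scrambled (log2 0.54, SE 0.08). The higher calls numbered 1 to 4 without each of the 4 RA arrays. Of 39 S phase genes, 2 were higher (5.13%), close to the share over all genes, and Orc1 led with 0.72; the count was 5 without RA Scrambled replicate 2. Of 32 genes of ribosome biogenesis and Myc targets, 3 were higher (9.38%) and 1 lower (3.12%), of which 2 higher stayed without RA Scrambled replicate 2 and none without each other RA array. None of 30 p53 targets was called; at an unadjusted p below 0.05, 2 were higher and 4 lower, and Ccng2 had the largest difference (-0.79).

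Lists of other lineages and responses are read beside the 5.39% of all genes called higher and the 6.69% called lower. Of 39 neural genes, 5 were lower (12.8%) and 0 higher, with 6 lower and 2 higher at an unadjusted p below 0.05. Sst read 7.75 and 7.75 in RA KD1 and 10.26 and 9.71 in RA Scrambled (log2 -2.23, SE 0.18), and Sox11, a factor of immature neurons, was lower at -0.80. The lower calls numbered 3 without RA KD1 replicate 2. Of 23 trophoblast genes, 4 were lower (17.4%) and 1 higher (4.35%). Gata2 read 9.70 and 9.47 in RA KD1 and 10.91 and 11.08 in RA Scrambled (log2 -1.41, SE 0.17), whereas Tead4 was higher by 1.27; the lower calls numbered 1 without RA KD1 replicate 2 and 2 without RA KD1 replicate 1 or RA Scrambled replicate 2. Of 31 interferon response genes, 7 were lower (22.6%) and 1 higher (3.23%), led by Ifit2 at -1.20; the lower calls numbered 2 or 3 without each of the 4 RA arrays. Of 32 epithelial genes, 4 were lower (12.5%) and 0 higher, with 7 lower and 4 higher at an unadjusted p below 0.05, led by the claudin gene Cldn4 (-1.25; not called without RA KD1 replicate 2 or RA Scrambled replicate 1), and 0 to 3 stayed lower without each of the 4 RA arrays. Of 18 smooth muscle genes, 3 were lower (16.7%) and 0 higher, with 5 lower and 1 higher at an unadjusted p below 0.05, and Synpo2 was lower at -1.04; the lower calls numbered 1 without either RA KD1 array and 5 without RA Scrambled replicate 2. Of 20 homeobox cofactors, 2 were lower (10%) and 0 higher, with 4 lower and 0 higher at an unadjusted p below 0.05; both calls, Tgif2 and Pbx2, were lost without each of the 4 RA arrays in turn.

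Among the partners of SET, PP2A subunits and histone chaperones, 3 of 46 were higher (6.52%) and 3 lower (6.52%), close to the shares over all genes. Setbp1, which encodes a protein that binds SET, read 9.20 and 8.98 in RA KD1 and 10.19 and 10.01 in RA Scrambled (log2 -1.01, SE 0.13). Ppp2r5a, a regulatory subunit of PP2A, read 11.11 and 11.08 in RA KD1 and 10.38 and 10.38 in RA Scrambled (log2 0.72, SE 0.10). Both stayed called without each array in turn, while the list's higher calls numbered 1 or 2.

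In stem cells, before differentiation, fewer genes were called. ESC KD1 against ESC Scrambled gave 169 genes higher (0.848%) and 218 lower (1.09%), 387 in either direction (1.94%). Of the 1075 genes higher in RA KD1, 76 were also higher in ESC KD1, which is 7.07% of the 1075 and 44.97% of the 169. Of the 1333 lower ones, 90 were also lower in ESC KD1, 6.75% of the 1333 and 41.3% of the 218. The 2 comparisons share no array. They came from the same fit and use the same standard error for each gene, so the 2 sets of calls are not independent. The difference between them was tested as an interaction, which called 505 genes as moving higher (2.53%) and 456 as moving lower (2.29%) with RA KD1 than with ESC KD1, 961 in all (4.82%). With arrays centred on their medians the split was 636 higher and 367 lower. Without each of the 8 arrays in turn the interaction called 192 to 670 higher and 111 to 486 lower, fewest without RA KD1 replicate 2, and in the fit of all 12 arrays it called 41 and 11. The stem cell comparison likewise called 4 higher and 9 lower in that fit, and 66 and 65 without ESC KD1 replicate 2.

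Of the 19 transcription factors and signals of the extraembryonic endoderm, 10 had a higher KD1 difference after retinoic acid than in stem cells. Of the parietal and visceral lists 15 of 30 and 9 of 27 did. Gata4 read 7.90 and 7.96 in ESC KD1 and 8.05 and 7.69 in ESC Scrambled, so the interaction was 2.94 (adjusted p = 0.000187). Hox genes had 12 of 37 members with a lower difference after retinoic acid and none called in stem cells, where limma gave 2 higher and 0 lower at an unadjusted p below 0.05. Car8, which encodes a carbonic anhydrase-related protein, was lower in ESC KD1 (-1.34) and higher in RA KD1 (2.26). Tnfsf9, a TNF-family ligand gene, was higher in ESC KD1 (1.45) and lower in RA KD1 (-1.29), where the call was lost without either RA KD1 array.

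**Figure D5:**
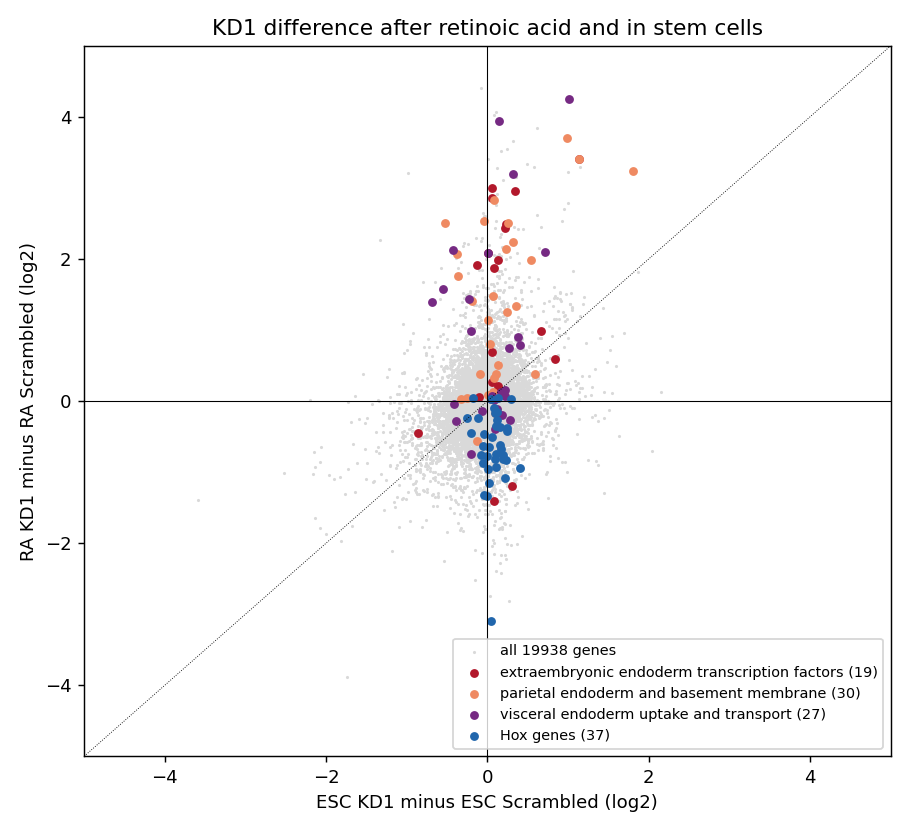
Each point is a gene, with ESC KD1 minus ESC Scrambled (log2) on the horizontal and RA KD1 minus RA Scrambled (log2) on the vertical axis; colours mark the measured members of 4 gene lists and the dotted line equal differences. Endoderm genes such as Gata4 (2.94 above the line) spread upwards and Hox genes downwards near 0 on the horizontal axis.

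RA KD2 replicate 1 was the only retinoic acid array of the second knockdown line used, since RA KD2 replicate 2 resembled the stem cell arrays and ESC KD2 replicate 2 the retinoic acid arrays. Whether these labels were exchanged was not tested. The spread of this single array was taken from the other groups. RA KD1 against this array gave 480 genes higher (2.41%) and 262 lower (1.31%), 742 in all (3.72%). Without RA KD1 replicate 2 these counts were 171 higher and 23 lower, and without RA KD1 replicate 1 they were 217 and 106. Cubn read 12.43 and 12.53 in RA KD1 and 10.66 in RA KD2 replicate 1, Lama1 read 13.34 and 13.44 in RA KD1 and 11.46 in RA KD2 replicate 1, and Gata4 read 12.34 and 12.35 in RA KD1 and 10.08 in RA KD2 replicate 1. Each was called higher in RA KD1. The median difference of RA KD1 from that array was 1.13 for the endoderm transcription factors and signals. It was 0.89 for the parietal genes and 0.17 for the visceral genes, beside -0.05 over all genes. Hoxb13 differed less, with 7.02 and 6.92 in RA KD1 and 7.42 in RA KD2 replicate 1. The Hox list as a whole was lower in RA KD1 than in that array, with a median difference of -0.33. The Set signal of probe set 10470893 was 11.28 and 11.16 in RA KD1 and 11.70 in RA KD2 replicate 1.

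Calls were spread unevenly over the chromosomes. On chromosome 8, 158 of 955 genes were lower in RA KD1 (16.5%), with a median difference of -0.13, and 655 lay below 0. Chromosome 1 had 149 of 1122 genes higher (13.3%, median 0.10), and chromosome 14 had 84 of 699 higher (12.02%, median 0.02). Sox17, Golt1a, Lamc1 and Ihh led chromosome 1, with 2.44, 2.00, 1.99 and 1.98. Sox7, Tbc1d4, Gata4 and Lmo7 led chromosome 14, with 3.41, 3.16, 3.0 and 1.73. Cdh11, Foxc2, Mmp2 and Crispld2 led the falls on chromosome 8, from -2.04 to -1.84, and Mmp2 was not called without RA KD1 replicate 2 or without either RA Scrambled array. Of the 84 genes higher on chromosome 14, 34 were also higher in ESC KD1 (40.5%), where 39 of its genes were called higher in all. On chromosome 8, 11 of the 158 were also lower in ESC KD1 (6.96%, beside 6.75% over all genes), where 27 of its genes were called lower and the median difference was -0.09. On chromosome 1, 12 of the 149 were also higher in ESC KD1 (8.05%, beside 7.07% over all genes), where 23 of its genes were called higher and the median difference was 0.13. Both medians in stem cells thus had the sign of those after retinoic acid. From RA KD2 replicate 1, a single array, RA KD1 differed by a median of -0.06 on chromosome 8, beside -0.05 over all genes. That median was 0.09 on chromosome 1 and -0.03 on chromosome 14. On chromosome 8 RA KD1 thus lay about as far from the second knockdown line as over all genes. Overlap above the 6.75% was also seen on chromosomes not listed above, named after their values were seen. On chromosome 5, 22 of 98 lower genes were also lower in ESC KD1 (22.45%), and on X 15 of 67 (22.39%).

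Of 9 measured genes on the Y chromosome, 4 were lower in RA KD1 (44.4%). Kdm5d, a histone demethylase gene, read 5.57 and 5.80 in RA KD1 and 7.59 and 7.70 in RA Scrambled (log2 -1.96, SE 0.11). Uba1y was lower at -1.13 and Uty at -0.71. The call of Uba1y was lost without either RA KD1 array or RA Scrambled replicate 2. That of Uty was lost without any of the 4 RA arrays or either ESC KD1 array. Among those named, Kdm5d alone stayed called without each array in turn. Kdm5d was lower in ESC KD1 as well (-1.81, adjusted p = 0.000614). In RA KD2 replicate 1 Kdm5d read 5.85 and Uty 9.18, near the RA KD1 arrays. Uba1y read 7.50 there, nearer the RA Scrambled arrays. What these chromosome-wide and Y-linked differences between the clones contribute to the gene groups above was not tested.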

How the data were processed

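Whole-cell RNA of each sample was measured on 1 Affymetrix gene array. The values are log2 expression as deposited; the submitters' processing notes name RMA, with its version not given in the sources used here. This method corrects background, normalizes between arrays and gives 1 value per probe set. Of 35556 probe sets, the platform annotation listed 23410, of which 21789 had 1 symbol and 1621 several; 12146 were not listed and were not used. The probe set with the highest mean over 12 arrays stood for each of 19938 genes; 19856 had a chromosome in the RefSeq table (GRCm38.p6).

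Limma 3.58.1 in R 4.3.3 fitted 4 groups (scrambled and KD1, in ESC and RA) to 8 arrays, with an intensity trend, 4 residual and 4.94 prior degrees of freedom, and Benjamini-Hochberg adjustment over 19938 genes; a gene was called below 0.05. KD2 was left out because replicate 2 of each KD2 group resembles the other state; RA KD1 against RA KD2 replicate 1 used 10 arrays. Set probe sets were tested among all annotated ones. With 2 arrays a group, their number limits precision, and p-values measure the spread between replicates of single clones. The fit was tested on simulated data.

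The comparison, the 31 pathway and 6 marker lists and the tests were chosen with earlier results of these data known. Genes were named by a rule: Set, the 15 largest called differences each way, up to 8 called members of each list, the 6 largest interactions each way and up to 4 genes of chromosomes whose share called in a direction was at least 2 times that over all genes. Predicted and RNA-class genes, genes with both means under 7.22 and genes whose arrays overlapped were left out of the largest differences, the interactions and the chromosomes. Alternatives changed the arrays fitted, a replicate block, scaling, moderation, a filter on dim genes, the probe summary, and left out each array. Figures were drawn with matplotlib 3.10.9.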

Additional observations from a re-analysis of the deposited data

Results flagged for a closer look

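The KD1 minus scrambled difference itself differed between the states for 961 genes by the interaction test of limma (adjusted p below 0.05), 505 of them higher and 456 lower after retinoic acid than in stem cells. Among genes that moved higher with KD1 after retinoic acid, the interaction on the log2 scale was 4.48 for Pga5, 4.2 for Slc6a15, 3.97 for Klb, 3.95 for Ptk6, 3.80 for Nostrin and 3.60 for Car8. Slc6a15, an amino acid transporter gene, read 9.69 and 9.94 in RA KD1 and 6.4 and 6.81 in RA Scrambled. Among genes that moved lower, it was -3.14 for Hoxb13, -3.08 for Igfbp7, -2.77 for Cxcl15, -2.74 for Calml4, -2.74 for Tnfsf9 and -2.59 for Edil3. Calml4, a calmodulin-like gene, was higher in ESC KD1 than in ESC Scrambled (2.04) and not called after retinoic acid (-0.71).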

How the results depend on the processing

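No named gene that was called turned its direction under the alternatives run, but the balance of all RA KD1 calls did, to 1430 higher and 958 lower with centring and to 421 and 305 without RA KD1 replicate 2. Fitting all 12 arrays moved the RA KD1 calls to 315 higher and 148 lower, those of at least 2-fold to 198 and 72, the interaction to 41 and 11, ESC KD1 to 4 and 9, and RA KD1 against RA KD2 to 236 and 32; it holds the 2 displaced KD2 arrays, and all 463 of its RA KD1 calls were among the 2408. Without those 2 arrays the fit of 10 arrays gave 1074 higher and 1333 lower. Each KD2 group then held 1 array and added nothing to the residual spread, with 4 residual degrees of freedom as in the main fit. That its counts lay so close to the main fit was therefore fixed in advance. Only the 4 RA arrays gave 2090 lower. Without each array in turn, RA KD1 calls ran from 421 to 1284 higher and from 305 to 1682 lower, and those of at least 2-fold from 261 to 326 higher and from 172 to 350 lower. The interaction ran from 192 to 670 and from 111 to 486, ESC KD1 from 66 to 195 and from 65 to 381, and RA KD1 against RA KD2 replicate 1 from 171 to 642 and from 23 to 436. A replicate block within each state gave 2022 higher and 2775 lower for RA KD1, 1433 and 1441 for the interaction, 795 and 1305 for ESC KD1, and 1035 and 887 for RA KD1 against RA KD2. Replicate numbers deviated together at 0.150 between RA KD1 and RA Scrambled and at 0.633 between ESC KD1 and ESC Scrambled, but at -0.019 to 0.068 between states, and the labels give only a number. The cause of the moves under the alternatives was not tested.

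Of 206 named genes that were called, 113 stayed called without each array in turn and 93 lost the call at least once. With arrays centred on their medians 13 named genes lost the call and the median difference of all genes was 0.08, beside -0.01. Robust moderation ended 2 calls of named genes, no trend 8, the mean of probe sets 3 and repeated quantile normalization 8. The largest loss came with the fit of all 12 arrays, where 57 of the 206 stayed called. The bright Set probe sets stayed called under every alternative run. With 2 arrays a group, small differences and genes near the floor of the array are the least certain.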
